A study of Mus musculus with 12 samples.

Results

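The RXR sites of mouse embryonic stem (ES) cells treated with LG268 were compared directly with those of the same cells treated with all-trans retinoic acid (RA). All 2089 peaks of the LG268 list and all 1970 peaks of the RA list were taken. A peak was shared where it overlapped a peak of the other list by 1 bp or more, and overlapping peaks were joined into 1 region. This gave 2915 regions, of which 1135 (38.9%) were shared, 951 (32.6%) were found with LG268 only and 829 (28.4%) with RA only. The 12 peak lists of the series hold 76731 peaks in all. The list of control cells defined no class.

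The cells were wild type E14 ES cells grown without feeders on gelatin with leukemia inhibitory factor, and both ligands were given at 1 µM for 24 h. RXR was mapped by chromatin immunoprecipitation and sequencing (ChIP-seq) after fixation in 2 steps, with disuccinimidyl glutarate and then formaldehyde. Further RXR lists came from control cells, from cells given GW3965 (an LXR agonist) at 1 µM for 24 h, and from cells differentiated toward neurons by way of embryoid bodies, taken at day 8 and day 16, with RA at 5 µM in the protocol. The treatment protocol names dimethylsulfoxide as the vehicle. H3K27ac, the acetylated lysine 27 of histone H3 that marks active regulatory DNA, was mapped in the control, LG268 and RA cells too. Each ligand has 1 RXR library, so no test compares the ligands, and every interval below covers counting error only. The differentiation days have 2 libraries each, which the labels do not describe as separate cultures. Sequencing depth is unknown, since the peak lists carry no read counts. As a description of the cells, H3K27ac peaks lay within 100 kb of 16 of 20 pluripotency genes in the control list. They lay within that distance of 8 of 20 in the LG268 list and 10 of 20 in the RA list. The share over all genes was not computed, so these counts neither check the cell label nor show a change with ligand.

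The retinoid X receptor (RXR) is a nuclear receptor that binds DNA mostly as the partner of another receptor, such as RAR, LXR or a PPAR. LG268 is a rexinoid, a ligand of RXR itself, whereas RA is the ligand of the retinoic acid receptors (RAR). RAR partners act on Hox genes and on the genes of RA breakdown. LXR partners act on genes of sterol efflux and of fatty acid synthesis, and PPAR partners on fatty acid oxidation genes. Pairs with LXR or PPAR can be activated by a ligand of either partner, and pairs with RAR respond mainly to RAR ligands. These receptors recognise pairs of a 6-base element, and the spacing between its copies differs with the partner.

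Promoter sequence was at hand for the regions that lie at annotated starts. Of 32817 distinct RefSeq windows (build GRCm38.p6, the coordinates of mm10, from 250 bases before to 50 bases after a gene's start), 631 touched a region. Each was searched on both strands for the consensus receptor element AGGTCA, for its close variant spelled GGGTCA, for a further variant spelled AGTTCA, for a last variant spelled GGTTCA, and for direct repeats of these hexamers with 0 to 8 bases between. The 4 windows below, of 180 bases each and read 5′ to 3′ on the gene's strand, show 1 example from each class and 1 shared region of higher rank with LG268. Capitals mark hexamers of a direct repeat or, for Pdk4, the single hexamer found. They are Rarb (chr14:16575477-16575656, minus strand, shared), Syndig1 (chr2:149830603-149830782, plus strand, RA only), Ranbp1 (chr16:18248695-18248874, minus strand, shared and higher with LG268) and Pdk4 (chr6:5496279-5496458, minus strand, LG268 only).
Rarb: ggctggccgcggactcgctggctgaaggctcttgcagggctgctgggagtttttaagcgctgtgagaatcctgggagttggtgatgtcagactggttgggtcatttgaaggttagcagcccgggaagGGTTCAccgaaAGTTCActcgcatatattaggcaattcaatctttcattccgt
Syndig1: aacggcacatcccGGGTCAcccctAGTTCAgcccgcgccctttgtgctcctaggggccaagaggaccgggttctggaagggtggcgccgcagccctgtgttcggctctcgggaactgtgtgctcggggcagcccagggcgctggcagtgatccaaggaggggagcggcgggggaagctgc
Ranbp1: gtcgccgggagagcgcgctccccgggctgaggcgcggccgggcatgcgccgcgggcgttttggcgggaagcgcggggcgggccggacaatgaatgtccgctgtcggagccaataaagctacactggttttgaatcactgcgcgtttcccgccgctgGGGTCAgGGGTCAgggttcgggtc
Pdk4: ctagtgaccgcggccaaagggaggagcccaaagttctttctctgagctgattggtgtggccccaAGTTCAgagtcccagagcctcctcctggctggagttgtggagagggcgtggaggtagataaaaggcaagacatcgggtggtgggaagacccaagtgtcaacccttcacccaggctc

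The repeat at Rarb, which encodes retinoic acid receptor beta, has 5 bases between its hexamers and ends 37 bases before the start. The repeat at Syndig1, which encodes a synapse differentiation protein, also has 5 bases between and lies 167 to 151 bases before the start. That at Ranbp1, a cofactor of nuclear transport, has 1 base between and lies 24 to 12 bases before the start, in letters that the window of the divergent gene Trmt2a also holds. The authors' score at the Ranbp1 region was 9.68 with LG268 and 2.95 with RA, 595.5 places higher with LG268, and at the Syndig1 region it was 4.23 with RA. Direct repeats with 5 bases between stood in 1 of 267 windows at shared regions, 0 of 190 at LG268 only regions and 2 of 176 at RA only regions, beside 0.0975% of all windows. A count of 0 in 190 windows, taken as under 3, allows a share of up to 1.58%. With the search limited to AGGTCA and to GGGTCA alone, this spacing stood in 0 windows of any class. Direct repeats with 1 base between stood in 5 windows at shared regions (1.87%), 2 at LG268 only regions (1.05%) and 2 at RA only regions (1.14%), beside 0.222% of all windows. Of the 5 at shared regions, those of Ranbp1 and Trmt2a hold the same repeat and that of Gm40303 lies outside its region, which leaves 3 distinct repeats inside a shared region. At least 1 hexamer was present in 58.4% of windows at shared regions (interval 52.3 to 64.4), 56.8% at LG268 only regions (49.5 to 64.0) and 59.1% at RA only regions (51.4 to 66.4), beside 43.7% of all windows. The classes thus had like shares of windows with a hexamer, with overlapping intervals, and the repeats were too few to compare.

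The highest peaks of each list were nearly all in the other list as well. In the highest-scoring decile of the LG268 list, 207 of 209 peaks (99.0%) overlapped an RA peak, and in that of the RA list 193 of 197 (98.0%) overlapped an LG268 peak. In the lowest decile the shares were 23.6% (49 of 208) and 27.9% (55 of 197). The score is the authors' own value per peak. It is read here only within a list, except in an alternative with the same score minimum on both lists. Where scores of several lists are printed together, their scale between lists is not stated, and only ranks compare the lists. Over whole lists, 1138 LG268 peaks (54.5%, 52.3 to 56.6) and 1141 RA peaks (57.9%, 55.7 to 60.1) were shared. The median score was 9.07 for shared and 5.34 for LG268 only peaks in the LG268 list, and 9.12 for shared and 5.87 for RA only peaks in the RA list. Peaks of a single list were also narrower, with a median of 212 bp against 276 bp with LG268 and 203 bp against 272 bp with RA.

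**Figure D1:**
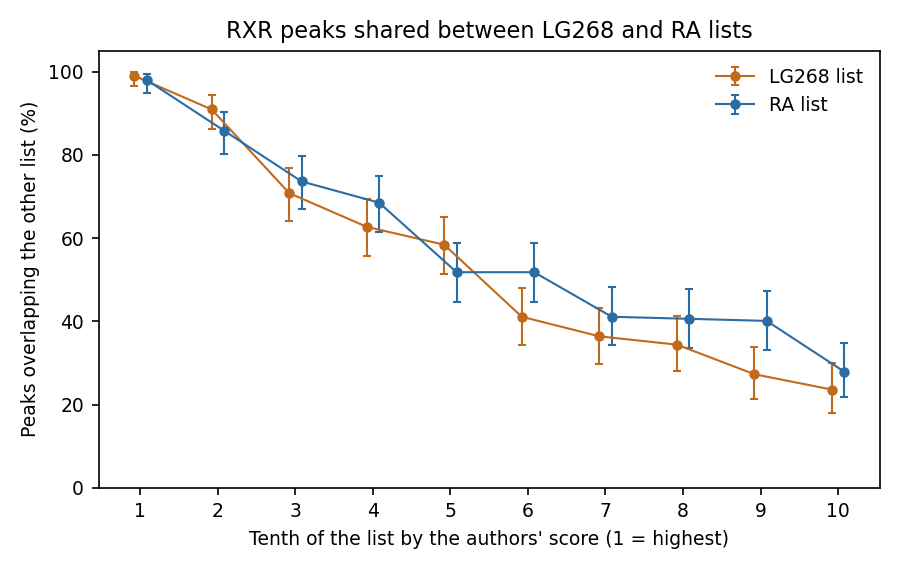
Share of peaks that overlap the other list (y axis, percent) by decile of the authors' score within each list (x axis, 1 = highest), with exact Clopper-Pearson 95% intervals as bars. Both lists run from 99.0% (LG268) and 98.0% (RA) in the first decile down to 23.6% and 27.9% in the last.

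The shared peaks mostly sat on top of one another, with a median overlap of 220 bp and a median distance between centres of 27 bp. The smallest overlap that counted as shared was 7 bp, and 10 of 1144 overlapping pairs shared under 50 bp. Just outside the rule, 24 LG268 only peaks had an RA peak within 1 kb and 25 RA only peaks had an LG268 peak within 1 kb. Peaks in simple repeats, satellites, low-complexity and rRNA elements or on the mitochondrial genome were concentrated among shared regions. They made up 168 shared regions (14.8%), 125 of them in telomere-type repeats, but 14 LG268 only regions (1.47%) and 11 RA only regions (1.33%). Repeats filled 17 of the 20 highest ranks of shared regions with LG268 and 15 of 20 with RA. Results on shared regions are therefore given with and without repeats where they differ.

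Outside repeats, the 10 shared regions with the best mean rank over both lists, chosen for being high in both, were nearest to Scd3, Scd2, Fasn, Plekhb1, Srebf1, Elovl5, Scd1, Cpt1a, Abcg1 and Guca2b. Among these genes Scd1, Scd2, Scd3, Fasn, Elovl5 and the regulator Srebf1 act in fatty acid synthesis, Cpt1a in fatty acid oxidation and Abcg1 in sterol efflux. The ranks of the 10 regions differed by 1 to 20 places between ligands. The region 9378 bp from Scd2, a stearoyl-CoA desaturase, scored 95.4 with LG268 and 91.8 with RA, ranks 15 and 13. The Fasn promoter, of fatty acid synthase, scored 75.4 and 79.2, ranks 21 and 17. All 10 also had a peak in the control list, in the GW3965 list and in both day 8 lists. Over all 2915 regions these shares were 30.7%, 11.3% and 18.9%, and they were higher over shared regions, as given further on. At Fasn the authors' score was 59.0 in the control (rank 19 of 1089) and 44.4 with GW3965 (rank 12 of 940), so the site stood near the top of all 4 ES lists.

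To compare ligands at shared sites, the 1135 regions were ranked by score in each list, with rank 1 the highest. Ranks correlated across regions with a Spearman rho of 0.61 (n = 1135), and of 0.49 over the 967 regions outside repeats. The same measure between the 2 day 8 libraries was 0.76 (n = 981), and 0.70 outside repeats (n = 803). Between the 2 day 16 libraries it was 0.92 (n = 297), and 0.76 outside repeats (n = 108). The median rank change from LG268 to RA was 14.3% of places, beside 12.0% between day 8 replicates and 4.71% between day 16 replicates. Outside repeats these values were 17.3%, 13.3% and 12.3%. A change of at least 25% of places, 284 here, was counted as large: 173 regions (15.2%) were that much higher with LG268 and 165 (14.5%) with RA. Between day 8 replicates 20.8% of shared regions moved that far, beside 29.8% between ligands, and outside repeats 26.5% and 36.6%. Regions are not independent replicates, and the differentiation libraries come from other cells, so these values describe spread and test nothing.

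**Figure D2:**
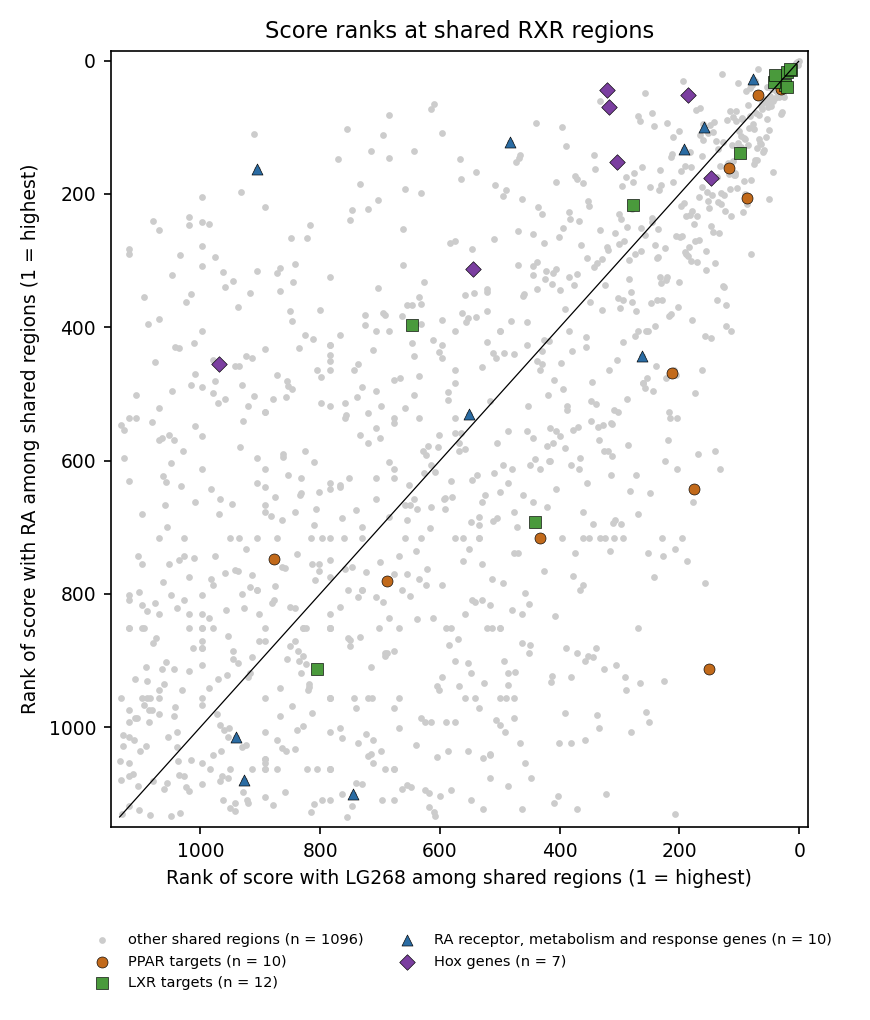
Rank of each shared region's score with LG268 (x axis) and with RA (y axis) among 1135 shared regions, rank 1 at the upper right; coloured points are regions within 100 kb of PPAR targets, LXR targets, RA-related genes and Hox genes, and the line marks equal rank. Most LXR points lie at the top corner near the line, 8 of 10 PPAR points lie below it (higher with LG268) and 6 of 7 Hox points above it (higher with RA).

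Most shared regions of PPAR targets ranked higher with LG268. The PPAR targets, like the lists that follow, were chosen with earlier results of these data known, so their direction is a description and not independent evidence. Of 21 PPAR targets among the 14490 genes that any list names as nearest gene, 10 had peaks of both lists within 100 kb, 2 (Ech1 and Ucp3) of LG268 only and 0 of RA only. Over all 14490 genes these shares were 6.35% for both lists, 4.53% for LG268 only and 3.99% for RA only. Of the 10 shared regions, 8 ranked higher with LG268, by a median of 105 places over the 10, beside 3.75 places over the 940 shared regions within 100 kb of a gene. Over those 940, 482 were higher with LG268 and 453 with RA. Large changes at the PPAR regions numbered 3, all toward LG268, those at Pdk4 and Acadl among them. The PPAR median of 105 places was 9.27% of places. Between day 8 replicates, single regions moved by a median of 12.0% of places in either direction.

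Pdk4 encodes a kinase that switches off pyruvate dehydrogenase. Its shared region (chr6:5509721-5510081, intergenic, 13623 bp upstream of the start) scored 23.4 with LG268 and 5.63 with RA, ranks 150 and 913 among shared regions. In the control it scored 6.67, and it was in none of the GW3965, day 8 or day 16 lists. Among shared regions it thus ranked 763 places higher with LG268. The scale of the scores between lists is not stated, so the control score is given only as a description. The Pdk4 promoter itself, printed above, had a peak with LG268 only (score 5.90).

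Acadl, the long-chain acyl-CoA dehydrogenase, had a region in intron 1, 432 bp from its start (chr1:66862718-66863018), that scored 21.3 with LG268 and 8.17 with RA and was in no other RXR list. Angptl4, an inhibitor of lipoprotein lipase, scored 33.5 and 20.3, and 22.9 in the control. For Klf10, a zinc finger factor, the scores were 18.4 and 10.8. Smaller differences in the same direction were seen at Acaa2, the mitochondrial thiolase, with 44 places, and at Cpt1a, the carnitine palmitoyltransferase, with 13 places. The exceptions were Slc25a20, the carnitine carrier, which was 17 places higher with RA, and Acadvl, the very long-chain dehydrogenase, which was 129.5 places higher with RA.

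**Figure D3:**
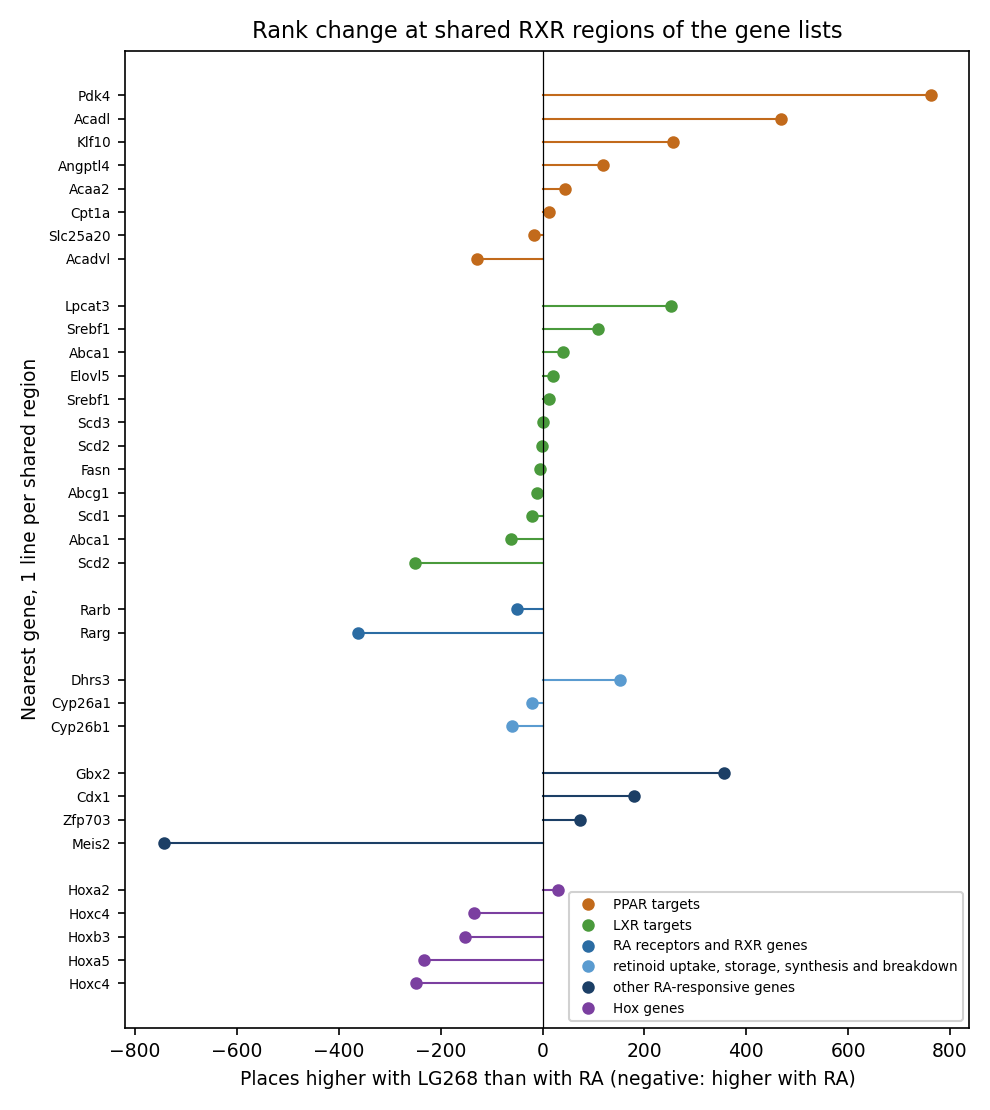
Places by which each shared region near a listed gene ranked higher with LG268 than with RA (x axis; negative values are higher with RA), 1 line per region shown and grouped by gene list. PPAR targets reach 763 places toward LG268 at Pdk4. LXR targets run from 250 places toward RA at Scd2 to 251.5 places toward LG268 at Lpcat3, with the highest-ranked ones near 0. The Hox regions shown reach 248 places toward RA near Hoxc4.

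Regions of RAR genes ranked higher with RA or were found with RA only. Of the 6 RAR and RXR genes, Rarb and Rarg had shared regions and Rara a region with RA only. The Rarb promoter region (chr14:16575299-16575781) scored 37.5 with LG268 and 54.8 with RA, ranks 78 and 27, and 33.0 in the control and 9.96 with GW3965. This was a change of 51 places among 1135. From rank 78 no rise could reach the median change between ligands (14.3% of places) or between day 8 replicates (12.0%). Those medians therefore cannot tell whether the change at Rarb is large or small. At day 8 the Rarb region scored 109 and 137, rank 16 in both libraries, and at day 16 it scored 15.2 and 15.5. The site was present in all 8 RXR lists. The Rarg promoter region, of the gamma receptor, scored 10.4 with LG268 and 27.4 with RA, a large change of 361.5 places, and 15.3 in the control. The Rara promoter region (chr11:98959836-98960044), of the alpha receptor, scored 16.4 with RA and 8.47 in the control, and had no LG268 peak. It scored 39.8 and 60.3 in the day 8 libraries.

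Of 17 Hox genes in the background, 5 had peaks of both lists, 1 (Hoxb13) of LG268 only and 1 (Hoxb1) of RA only. Hox genes encode homeobox factors of the body axis, and the anterior ones are known RA responders. Of 7 shared Hox regions, 6 ranked higher with RA, with a median of 232 places toward RA over the 7. Near Hoxc4, regions 27294 bp and 31425 bp from the start scored 20.3 and 14.1 with LG268, and 43.2 and 36.3 with RA. A region nearer Hoxc4 (4530 bp) was found with RA only, at 16.6, and scored 60.1 and 104 at day 8, and beside it a region 6755 bp from the start was found with LG268 only, at 3.64. Hoxa5 and Hoxb3 were 232 and 152 places higher with RA, and the exception, a region nearest Hoxa2, was 29.5 places higher with LG268. Several regions of 1 cluster share their neighbourhood and are not independent.

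Genes of retinoid handling changed rank by at most 152.5 places at their shared regions. Of 9 in the background, 4 had peaks of both lists and 1, Stra6, the cell's receptor for retinol uptake, of RA only (score 11.8), also present in both day 8 libraries. Cyp26a1 and Cyp26b1 encode RA-degrading enzymes. Their shared regions scored 9.36 and 19.9 with LG268, and 9.70 and 26.1 with RA, and each had a further region with RA only. Dhrs3, which reduces retinal, ran the other way by 152.5 places, with scores of 5.56 and 4.09. None of the rank changes at the 4 shared regions of this list was large.

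Of 16 other RA-responsive genes, 6 had peaks of both lists, 1 (Nr2f2) of LG268 only and 4 (Foxa1, Meis1, Stra8 and Tshz1) of RA only. These counts depend on the distance limit, with 2, 2 and 1 genes within 10 kb and 10, 2 and 2 genes with no limit. Meis1 counted as RA only through that limit, since 2 shared regions nearest to it lie over 100 kb away. At Nrip1 and Rai1 the peaks of the 2 lists lay in separate regions. Of the 4 shared regions of this list within 100 kb, 3 ranked higher with LG268 and 1 with RA. The median over the 4 was 127 places toward LG268. The limit left out a shared region 118212 bp from Skap1, also in this list, that ranked 800 places higher with RA. Meis2, a homeobox partner of Hox proteins, had an intron 7 region (chr2:116021091-116021364) that scored 5.76 with LG268 and 23.4 with RA, 743.5 places higher with RA, and had no control peak. Gbx2, a homeobox factor of the hindbrain boundary, had a region 356 places higher with LG268 (7.16 and 3.53), and Cdx1 and Zfp703 were also higher with LG268. Stra8, the meiosis inducer of germ cells, had a promoter region with RA at 13.2. Tshz1 had 2 regions with RA only, at 13.7 and 7.64, both present in the day 8 libraries.

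Shared regions of LXR targets were split evenly between the ligands. Of 18 in the background, 9 had peaks of both lists, 2 (Arl4c and Npc1) of LG268 only and 1 (Lpl) of RA only. Of 12 shared regions, 6 ranked higher with each ligand, and none of the changes was large. The promoter region of Abca1, the cholesterol efflux pump, scored 31.8 with LG268 and 25.4 with RA, and that of Lpcat3, a phospholipid acyltransferase, 11.3 and 7.60. Among the single-list regions, the promoter of Arl4c, a small GTPase, scored 13.3 with LG268 and 7.75 in the control. That of Npc1, a cholesterol transporter, scored 6.44 with LG268, and a region 73676 bp from Lpl, the lipoprotein lipase gene, scored 10.8 with RA. Among 21 nuclear receptor and coregulator genes, 7 had peaks of both lists, 2 of LG268 only and 1 of RA only. There, an intron 1 region of the coactivator gene Ncoa3 scored 25.8 with LG268 and 68.0 with RA, 109 places higher with RA. The shared region at the Ncoa3 promoter went the other way. It scored 6.67 with LG268 and 3.16 with RA, 306 places higher with LG268, the only large change of this list. Neural genes had 3, 1 and 1 of 18 in these classes, and pluripotency genes 0, 1 (Sox2, score 3.38) and 0 of 18.

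The 10 regions with the largest rank change toward each ligand were chosen for that change, and their other values are a description. Toward LG268 the genes nearest to them included Vamp3, Slc35d1, Pdk4, Mlycd, Gm11974, Sars, Pcnxl4, Nudt6 and Cluh. The 10 regions scored 12.0 to 23.4 with LG268 and 2.74 to 5.63 with RA, and 5 of the 10 lay within 1 kb of a start and 1 over 100 kb away. Toward RA they were nearest to 1700112E06Rik, Tspan9, Ptk2, Slc24a2, Skap1, Gm2516, Sowaha, Slc14a2, Etl4 and Meis2. They scored 2.95 to 5.76 with LG268 and 15.9 to 29.3 with RA, and 1 of the 10 lay within 1 kb of a start and 5 over 100 kb away. The region in intron 4 of Skap1, a gene beside the Hoxb cluster, scored 5.75 with LG268, 29.3 with RA and 12.7 in the control, and 39.5 and 45.9 at day 8. Of the 10 regions toward LG268, 6 were in the control list and 2 in both day 8 lists, and of the 10 toward RA, 3 and 4. Over whole terciles of rank change, outside repeats, control peaks lay at 50.5% toward LG268 and 51.8% toward RA. Peaks in both day 8 lists lay at 14.4% and 32.1%. Counts out of 10 are too small to tell from these shares. Mlycd encodes malonyl-CoA decarboxylase, and its promoter region (chr8:119394580-119394923) scored 12.9 with LG268, 2.95 with RA and 8.99 in the control. The difference in position between the 2 sets of 10 was not seen over the terciles of rank change given further on.

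The highest regions of a single list were nearest to Hunk (23.9), Mbd6 (20.8), Socs3, Vmn1r2, Emp1, D8Ertd82e, Amotl2, Gadd45a, Narg2 and Arl4c (13.3) with LG268. With RA they were nearest to 4930524C18Rik (26.7), 2210417A02Rik, Tmem161b, Calr, Ankrd50, Eps15, Mbd3, Hoxc4, Smad2 and Rara (16.4). Of these highest regions, 5 of the 10 with LG268 only and 6 of the 10 with RA only had a control peak, beside 12.2% and 13.3% over the whole classes. Hunk, a protein kinase gene, scored 14.3 in the control at its intron 1 region. Socs3, which encodes an inhibitor of cytokine signalling, had a region 6226 bp upstream with peaks in the control and GW3965 lists and H3K27ac in the control, LG268 and RA lists. Of these regions, 4 of the 10 with RA and 0 of the 10 with LG268 were in both day 8 lists. Over the whole classes these shares were 15.1% and 3.05%.

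By position, the 2 single-list classes were alike at promoters and differed little elsewhere. Regions within 1 kb of a start made up 27.6% of shared, 29.0% of LG268 only and 26.3% of RA only regions, beside 27.7% of all regions. The difference between the single-list classes was 2.73 percentage points (Newcombe interval -1.45 to 6.86). Intergenic regions were 36.3% of LG268 only and 41.4% of RA only regions, a difference of 5.10 points (0.562 to 9.62). CpG islands were 7.47% and 4.83%, a difference of 2.64 points (0.386 to 4.88). Among single-list regions that ranked in the higher-scoring 50% of their full list (250 with LG268 and 241 with RA), both differences lost their call. They were 1.11 points (-7.55 to 9.75) and 1.44 points (-2.71 to 5.61). This set was added after the data were seen. Shared regions were split into terciles by rank change, in which the tercile toward LG268 moved by 98.50 to 922.5 places and that toward RA by 91.00 to 838 places. Regions within 1 kb of a start made up 29.9% of both terciles, and those over 100 kb away 15.6% toward LG268 and 14.3% toward RA (interval of the difference -3.78 to 6.43). CpG islands were 7.94% of the tercile toward LG268 and 2.91% of that toward RA, a difference of 5.03 points (1.81 to 8.44). Outside repeats, regions within 1 kb of a start made up 33.9% toward LG268 and 31.3% toward RA. Those over 100 kb away made up 12.3% and 13.3%. The intervals of these differences span 0 (-4.32 to 9.58 and -5.96 to 4.06).

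RA only regions recurred at day 8 of differentiation more often than LG268 only regions. A peak in both day 8 libraries was found at 15.1% of RA only regions (125 of 829) and 3.05% of LG268 only regions (29 of 951), beside 18.9% of all regions. The difference was 12.0 percentage points (9.41 to 14.8). With day 8 library 1 alone the shares were 16% and 3.05%, and with library 2 alone 26.2% and 10.3%, so both libraries gave the same order. Shared regions ran the same way: 33.9% of the tercile toward RA and 21.7% of that toward LG268 were found at day 8, a difference of 12.2 points (5.79 to 18.4), and 17.7 points (11.5 to 23.7) outside repeats. All shared regions stood at 35.0%, or 25.7% outside repeats. The protocol of the day 8 cells includes RA, and the part of that in this difference was not tested.

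Presence in the control and GW3965 lists did not separate the single-list classes at this size. Control peaks lay at 58.9% of shared, 12.2% of LG268 only and 13.3% of RA only regions (30.7% of all), with a difference of 1.07 points between the last 2 (-2.02 to 4.21). GW3965 peaks lay at 23.0%, 3.68% and 3.98% (11.3% of all), a difference of 0.300 points (-1.50 to 2.16). At day 16 the shares in both libraries were 19.4%, 0.946% and 1.45% (8.27% of all). The day 16 share was 14.6% in the tercile toward LG268 and 6.61% in that toward RA. Repeats made up 11.9% and 4.5% of these terciles, and outside repeats the day 16 shares were 4.80% and 3.32%, with an interval of the difference that spans 0.

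**Figure D4:**
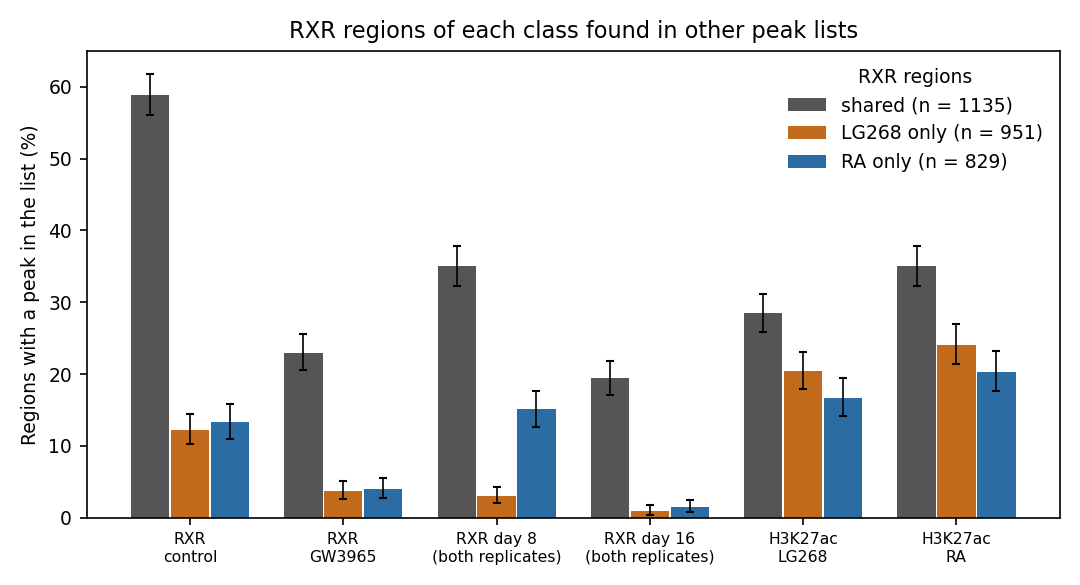
Share of shared, LG268 only and RA only RXR regions (y axis, percent) with an overlapping peak in 4 other RXR readouts and in the H3K27ac lists of the ligands, with exact Clopper-Pearson 95% intervals as bars. The single-list classes stand apart at day 8 (3.05% and 15.1%) and lie close together in the control and GW3965 lists.

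H3K27ac was called at a larger share of LG268 only than of RA only regions in the lists of both ligands. In the LG268 list H3K27ac covered 28.5% of shared, 20.4% of LG268 only and 16.6% of RA only regions (22.5% of all), and in the RA list 35.0%, 24.1% and 20.3% (27.2% of all). The difference between the single-list classes was 3.75 points in the LG268 list (0.123 to 7.34) and 3.81 points in the RA list (-0.0650 to 7.65), where the interval reaches 0. In the control list the shares were 36.8% of shared, 31.0% of LG268 only and 23.9% of RA only regions (31.3% of all), and the difference was 7.14 points (2.98 to 11.2). Outside repeats the difference in the RA list was 4.15 points (0.228 to 8.02). Among single-list regions in the higher-scoring 50% of their full RXR list, the difference in the LG268 list was 8.06 points (1.98 to 14.1). It was 7.17 points in the RA list (0.717 to 13.6) and 11.1 points in the control list (3.92 to 18.1). H3K27ac with RA and not with LG268 was found at 6.10% of LG268 only and 5.19% of RA only regions (7.72% of all). The reverse was found at 2.42% and 1.57% (2.95% of all). The H3K27ac lists held 12472 peaks with LG268 and 14958 with RA, and with 1 library each, peak number and ligand cannot be told apart.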

How the data were processed

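RXR ChIP-seq peak lists were called per library, 1 list per ligand in ES cells, and per the submitters' processing notes the tools were MACS2 2.0.10, HOMER 4.2 and BWA 0.6.0, with the builds mm9 and mm10 listed. Per the file headers, peaks are annotated on mm10. Each peak carries a deposited score from the authors, whose scale between lists is not given in the sources used here, and other deposited values: the distance to the nearest start, the nearest gene and the location. A gene counts as a site's gene only as the nearest one within 100 kb.

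Overlap, ranks among shared regions (ties averaged), exact Clopper-Pearson 95% intervals, Newcombe intervals of differences and the hexamer search were computed in Python 3.11.15 (scipy 1.17.1, pandas 2.3.3, numpy 2.4.6), with figures in matplotlib 3.10.9. Overlap and rank change were tested on simulated data. Genes were named by a rule: outside repeats, the nearest genes of the 10 best shared mean ranks, of the 10 largest rank changes toward each ligand and of the 10 highest peaks of each single-list class, and members of 9 gene lists with a peak. A few of these genes are not reported here. The members and lists were chosen with earlier results of these data known. The terciles, the promoter windows and the example windows were chosen after the values were seen. Alternatives were other overlap rules, score limits, gene windows, lists of equal length, removal of repeats and each day 8 or day 16 library alone. The planned motif scan of whole peaks was not run, as only promoter sequence was used here. Depth is unknown.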

Additional observations from a re-analysis of the deposited data

How the results depend on the processing

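Of 95 recomputed values of main comparisons, 75 stayed within their error or within 1.5 times of the count, 20 moved and 0 reversed; of 109 values of gene lists, 95 stayed and 14 moved. Under 50% reciprocal overlap, 50.9% of LG268 and 54.0% of RA peaks were shared, and without repeats 50.6% and 54.0%, with a rho of 0.49. With each list cut to its higher-scoring 50% before the overlap, there were 603 shared regions and 440 LG268 only and 380 RA only peaks. The shared percentages were then 57.9 and 61.4. With the same score minimum of 5.23 on both lists, 609 peaks were LG268 only and 58.0% of LG268 peaks were shared. That cut reads the score across lists, whose common scale is not stated. Within 10 kb, 502 genes had peaks of both lists, 389 of LG268 only and 321 of RA only. The day 8 difference between RA only and LG268 only regions was 13.0 to 15.9 points when either day 8 library was left out and 12.1 points without repeats. Among the 250 LG268 only and 241 RA only regions in the higher-scoring 50% of their full list, the day 8 difference was 18.8 points. In this set the control and GW3965 differences were -2.05 and -2.25 points, with intervals that span 0. With terciles formed again without repeats, the day 16 difference between the RA and LG268 sides was -1.24 points (-4.49 to 1.93), against -7.94 to -7.67 points when either day 16 library was left out. The cause of these moves was not tested. No paired analysis was possible because each ligand has 1 library.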

Other observations

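Chromosome 11, which carries the Hoxb cluster and Rara, held 16.2% of RA only regions (134 of 829), 11.5% of LG268 only regions (109 of 951) and 12.2% of shared regions (139 of 1135). The difference between the single-list classes was 4.70 percentage points (1.50 to 7.96). Among single-list regions in the higher-scoring 50% of their full list it was 1.80 points (-4.66 to 8.29). The chromosome was singled out after its values were seen.

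Other promoter regions with a direct repeat of the hexamers changed rank in both directions. At Chchd1, a mitochondrial ribosome protein gene, a repeat with 4 bases between lay under a region that scored 13.2 with LG268 and 21.8 with RA. At Dedd, a death effector domain gene, a repeat with 8 bases between lay under a region that scored 17.9 with LG268 and 10.6 with RA. At Ndufs6, a subunit of respiratory complex I, a repeat with 1 base between lay under a region that scored 3.06 with LG268 and 4.65 with RA. Regions with this spacing in 1 list were at the starts of Pam16 (7.05) and Kif6 (3.85) with LG268, and of Dph5 (5.23) and Pold1 (4.23) with RA.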
